A study of Mus musculus with 17 samples.

Results

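The 9 genes described here, Clu, Ly6a, Anxa1, Cyr61, Ctgf, Areg, Ereg, Thbs1 and Amot, are named targets or partners of the transcriptional coactivator YAP or markers of regenerating intestinal epithelium. They were taken by symbol from the 26422 genes listed in the count files, and their counts come from 19877 cells of 17 mouse small intestinal organoid libraries made with Seq-Well S3. In this method each cell is caught in a small well beside a bead whose barcode tags its mRNA, and the random tags called unique molecular identifiers (UMIs) allow each captured molecule to be counted once. Organoids grown from C57BL/6 crypts were first kept in ENR+CV, that is EGF, Noggin and R-spondin 1 with CHIR99021 and valproic acid, a medium that holds them rich in stem cells, and these gave 2 libraries at day 0. They were then moved to ENR+CD, in which CHIR99021 and the Notch pathway inhibitor DAPT direct cells towards the Paneth lineage, and sampled at days 0.25, 1, 2, 3, 4 and 6. From then on 7 libraries came from the ENR+CD control and 8 from ENR+CD with 160 nM KPT-330, an inhibitor of the nuclear exporter XPO1. Day 6 had 2 libraries in each condition and day 3 had 2 with KPT-330, and every other condition and day had 1. The libraries of days 0.25 and 1 carry replicate number 1, and those of days 2 and 4 and the day 3 control carry number 2. Day is thus largely confounded with replicate number up to day 4. Each library pooled many organoids, and what a replicate number stands for is not given in the labels, so p-values measure the spread between these libraries, which may be technical.

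YAP and its relative TAZ enter the nucleus when Hippo pathway kinases are inactive and bind TEAD transcription factors. Amot, a scaffold protein of cell junctions, can hold YAP outside the nucleus. Ctgf and Cyr61, secreted matrix-associated proteins of the CCN family, and Thbs1, a secreted matrix glycoprotein, are classical YAP targets, and Areg and Ereg encode ligands of the EGF receptor. In the intestine, Clu, a secreted chaperone, marks rare cells that rebuild the stem cell pool after damage, and Ly6a and Anxa1, a surface protein and a phospholipid-binding protein, mark fetal-like epithelium during repair.

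RefSeq places the genes on GRCm38.p6, the assembly behind the mm10 build used for alignment, with Clu at chr14:65968483-65981548, Ly6a at chr15:74994877-74998031, Anxa1 at chr19:20373434-20390671 and Amot at chrX:145446424-145505966. Areg lies at chr5:91139599-91148432 and Ereg at chr5:91074617-91093649 on the same chromosome, while Thbs1 lies at chr2:118111876-118127133. Cyr61 and Ctgf carry the current symbols Ccn1 and Ccn2 in RefSeq and lie at chr3:145646971-145649985 and chr10:24595442-24598683. Promoter windows were given for 4 of the 9 genes, Anxa1, Cyr61, Areg and Amot. The letters GGAATG, the core of the TEAD motif, were searched on both strands together with the AP-1 letters TGANTCA. Of all 32851 windows of 300 bases, 14.7% held the TEAD letters and 7.81% the AP-1 letters. Among the 4 genes, 2 held the TEAD letters, each once and as the reverse complement CATTCC, and 0 held the AP-1 letters. The 250 bases before the start of these 2 genes, on their own (minus) strand of GRCm38.p6, are shown because they carry the match, which is in capitals. A match is a description of the letters only.
Cyr61, chr3:145649986-145650235: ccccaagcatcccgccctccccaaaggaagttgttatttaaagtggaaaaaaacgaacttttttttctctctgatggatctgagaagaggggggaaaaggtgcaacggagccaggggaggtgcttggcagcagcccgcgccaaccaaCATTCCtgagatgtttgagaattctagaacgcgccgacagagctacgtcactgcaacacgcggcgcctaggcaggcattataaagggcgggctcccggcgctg
Anxa1, chr19:20390672-20390921: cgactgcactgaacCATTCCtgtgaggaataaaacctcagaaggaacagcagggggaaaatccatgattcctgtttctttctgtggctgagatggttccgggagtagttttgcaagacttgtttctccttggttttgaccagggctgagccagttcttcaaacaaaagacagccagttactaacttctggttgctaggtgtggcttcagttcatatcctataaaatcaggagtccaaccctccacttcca
The first base of the match lies 103 bases before the start of Cyr61 and 236 bases before that of Anxa1.

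Libraries held 531 to 1547 cells and 3458887 to 12433109 UMIs, with a median per cell of 2676 to 8463 UMIs, and 14 barcodes occurred in 2 libraries. Xpo1, the target of KPT-330, was 1.504 ± 0.086 (SE) higher on the log2 scale with the inhibitor (edgeR adjusted p = 7.763e-07). Levels are given as UMIs per 1000000 UMIs of the library (CPM), or of the class within a library where a class is named, with exact Poisson 95% intervals where quoted, which cover counting error only. Fold changes are from edgeR with TMM scaling, which differs from a ratio of such levels: scaling to the total count moved the median of all genes by -0.27 on the log2 scale for KPT-330 against control and by -0.41 at day 6. Under it the split of calls for KPT-330 against control went from 1841 higher and 1820 lower genes (50.3% higher) to 470 higher and 4900 lower (8.75%). The share higher went from 50% to 3.58% at day 6, from 45.9% to 35.7% for the trend with day, and from 44.4% to 24.1% for day 0 against ENR+CD. In whole libraries, fewer cells of a type and less RNA per cell cannot be told apart. The 14 markers of fibroblasts, endothelium and immune cells summed to 5.13 to 7.36 CPM at day 0, 5.64 to 34.2 in control and 6.35 to 71.1 with KPT-330. Of their 2613 UMIs, 87.1% were Lyz2, a near copy of the Paneth gene Lyz1 with which counting could split reads, and 3 UMIs were Ptprc, the pan-leukocyte marker.

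In control medium Clu, Cyr61 and Thbs1 rose with day, and no gene of the 9 fell beyond the threshold, except Amot where the log2 of day replaced day (-0.23, adjusted p = 0.003235) or the day 2 library was left out. Of the 9 genes, 3 were called higher and 0 lower (edgeR, slope per day over 7 libraries, adjusted p under 0.05), against 17.2% of 12442 genes called in either direction, 7.88% called higher and 9.3% lower. The median slope was 0.36 per day for the 9 genes and -0.0060 for all genes, on the log2 scale. The slope is partly confounded with replicate number, as the early control libraries carry a different number from those of the middle days. Cell classes, described below, also changed in share with day, and their part in the slopes was not tested.

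Clu was at 7.77 CPM at day 0.25, 6.51 at day 1, 12.01 at day 2, 12.3 at day 3, 63.4 at day 4, and 311 and 350 in the 2 day 6 control libraries. The level stayed low to day 3 and most of the rise fell between day 3 and day 6. The slope was 1.06 ± 0.10 (SE) per day on the log2 scale, a 2.08-fold gain per day (adjusted p = 0.002984), and Clu was called in all 15 alternative fits of the trend. Before the medium change the 2 day 0 libraries differed, at 3.12 (1.71 to 5.24) and 30.4 (26.5 to 34.6) CPM. In the second, 90.4% of the Clu UMIs came from 1% of the cells. Cyr61 was at 40.0 CPM at day 0.25, 91.8 at day 1, 102 at day 2, 83.8 at day 3, 170 at day 4, and 171 and 294 at day 6. It rose by 0.36 ± 0.06 per day on the log2 scale (adjusted p = 0.01377), and the call was lost without the second day 6 control library (0.30 per day, adjusted p = 0.06264). Thbs1 was higher at each sampled day than at the one before, at 125 CPM at day 0.25, 190 at day 1, 514 at day 2, 842 at day 3, 1402 at day 4, and 1435 and 1872 at day 6. Its slope was 0.63 ± 0.09 per day (adjusted p = 0.00705), called in all 15 alternative fits.

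The other 6 genes did not pass the test of the trend in control medium. Amot was at 77.4 CPM at day 0.25, 60.5 at day 1, 38.3 at day 2, 45.9 at day 3, 44.9 at day 4, and 32.7 and 44.0 at day 6, with a slope of -0.14 ± 0.05 (adjusted p = 0.06291). Its values at day 2 and later all lay below those of days 0.25 and 1. Ly6a lay between 0.391 and 7.56 CPM and Anxa1 between 1.17 and 11.0 over the 7 control libraries. Both were highest in the 2 day 6 libraries, with slopes of 0.36 ± 0.17 for Ly6a (adjusted p = 0.1564) and 0.39 ± 0.14 for Anxa1 (adjusted p = 0.07589). Ly6a has close relatives in the genome, so its reads could be split among copies. Ctgf lay between 0.748 and 8.12 CPM and was highest at days 1 and 6. Areg peaked at day 2, at 244 CPM against 57.4 to 155 in the other 6 control libraries, and Ereg peaked in the same library, at 12.01 against 1.88 to 4.96. Without the day 0.25 library Ly6a (0.88, adjusted p = 0.01664) and Anxa1 (0.73, adjusted p = 0.0146) were called, and without the day 2 library Areg (0.18, adjusted p = 0.03581) and Amot (-0.16, adjusted p = 0.03102). Anxa1 was also called with a replicate block (0.48, adjusted p = 0.03087) and with equal weight per cell (0.11, adjusted p = 0.04715).

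**Figure D1:**
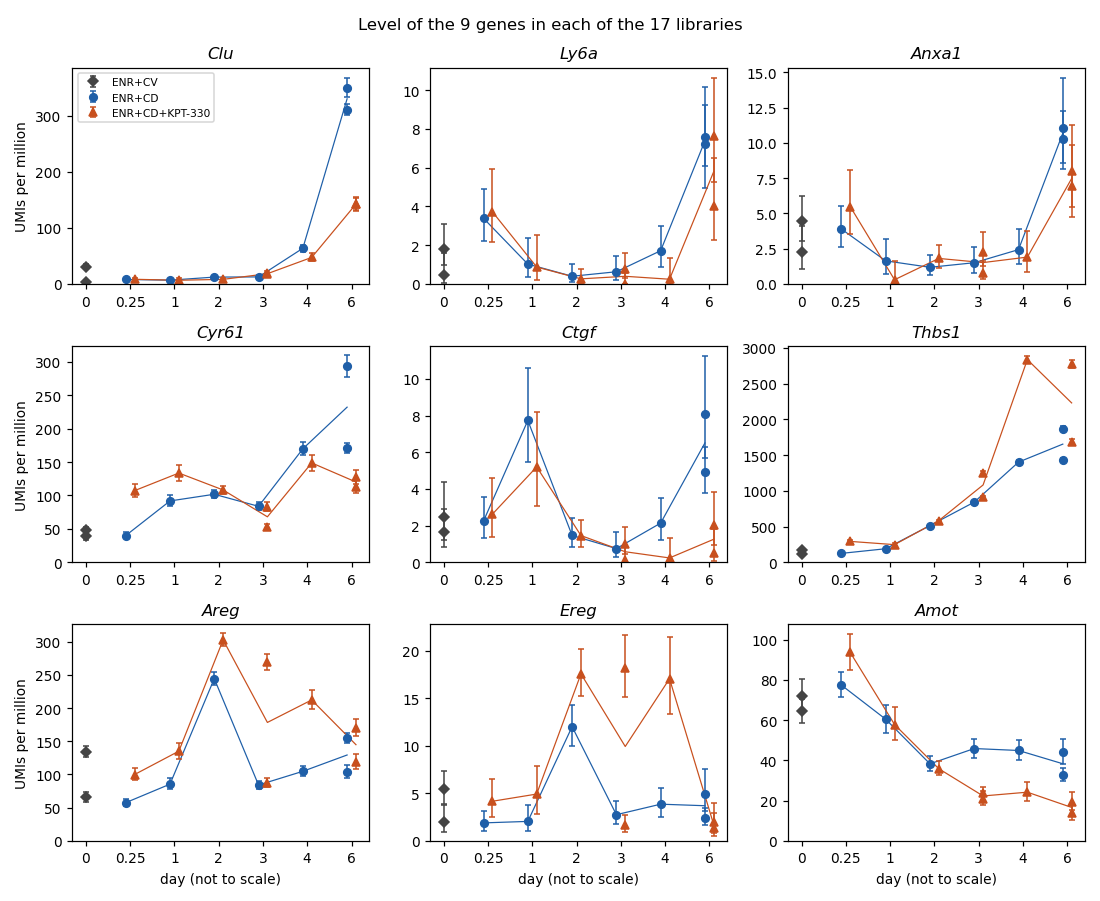
CPM (vertical axis) by day (horizontal axis, not to scale) for each gene, with 1 point per library: diamonds ENR+CV, circles ENR+CD, triangles ENR+CD with KPT-330. Bars are exact Poisson 95% intervals of counting error and lines join the mean of each day; Clu climbs to 311 and 350 in the day 6 controls and to 142 in both day 6 KPT-330 libraries, while Thbs1 with KPT-330 lies above control on 6 of 6 days by the daily means.

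Against the 7 ENR+CD controls as 1 group, the 2 day 0 libraries showed no called difference in any of the 9 genes (edgeR, 0 of 9, with 2.07% of 12844 genes called, 0.919% higher and 1.15% lower). At an unadjusted p under 0.05 there were 2 genes, and DESeq2 called the same 2, Cyr61 and Thbs1. Cyr61 was at 39.3 and 48.1 CPM at day 0 and was 1.72 ± 0.66 higher on the log2 scale in ENR+CD (adjusted p = 0.1299). The corresponding difference was 2.76 ± 1.04 for Thbs1 (adjusted p = 0.1276), which was at 121 and 166 at day 0. Amot, at 72.1 and 64.3 at day 0, differed by -0.41 ± 0.28 (adjusted p = 0.3191). When only days 2 to 6 stood for ENR+CD, Cyr61 (1.97, adjusted p = 0.008625), Thbs1 (3.15, adjusted p = 0.001366) and Amot (-0.69, adjusted p = 0.00425) were called, as they were when the day 0.25 library alone was left out (adjusted p = 0.02125, 0.02262 and 0.04637). In simulated data with 200 genes changed by 2-fold, this comparison recovered 2% of them among 12670 genes, so its lack of calls says little about differences of that size.

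The genes were detected in different cells. Clusters made without the 9 genes were named by marker genes as stem-like, cycling-like, goblet-like, enterocyte-like, enteroendocrine-like and Paneth-like, and 3 clusters that met no name are called by their leading genes. The stem-like cluster had 1 stem marker, Tnfrsf19, among its leading genes, which began with Notum and Gif. Its mean marker score was 1.619 for stem and 1.708 for tuft markers, which were sparse and not used for names. Among libraries without KPT-330, Clu averaged 373 ± 562 CPM (SD, 7 libraries with at least 20 such cells) in stem-like cells, and 52.5% of its UMIs lay in that class, which held 16.1% of the cells. These 7 are the ENR+CD controls. The day 0 libraries held only 5 and 16 stem-like cells (0.942% and 1.09%). Their cells were mostly cycling-like (36.0% and 50.2%) or in the Gm10800/Kcnn4 cluster (39.4% and 28.7%). Stem-like levels thus do not describe the ENR+CV cells. Cyr61 averaged 343 ± 151 in stem-like cells and 143 ± 129 in cycling-like cells (9 libraries). Ctgf was likewise highest in stem-like cells, at 13.5 ± 14.3. Amot was at 101 ± 6.85 in stem-like and 97.1 ± 18.3 in cycling-like cells, which does not separate them, and at 18.7 ± 7.35 in Paneth-like cells (5 libraries).

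The EGF receptor ligands had another place. Areg averaged 666 ± 305 CPM in enterocyte-like cells (9 libraries) and 8.02 ± 3.37 in stem-like cells, and 72.2% of its UMIs came from enterocyte-like cells, 8.9% of all cells. Ereg followed the same pattern at 25.9 ± 23.1 in enterocyte-like cells, with 75.1% of its UMIs there. Thbs1 averaged 2210 ± 496 in Paneth-like cells and 1592 ± 392 in the Lyz1/Ccl9 cluster (5 libraries each), against 48.7 ± 27.9 in enterocyte-like cells. Ly6a and Anxa1 were sparse in every class, with highest means of 12.3 ± 30.7 for Ly6a in goblet-like cells and 8.73 ± 9.37 for Anxa1 in cycling-like cells, where the spread over libraries exceeded the mean. These class levels are descriptions with no test. In control, Paneth-like cells went from 0.614% of cells at day 0.25 to 45.7% and 39.0% at day 6. Stem-like cells went from 2.37% at day 0.25 to 31.1% at day 4, and to 14.0% and 25.4% at day 6. Cycling-like cells went from 47.5% at day 0.25 to 5.21% and 5.27% at day 6. The part of these shares in the trends with day was not tested.

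**Figure D2:**
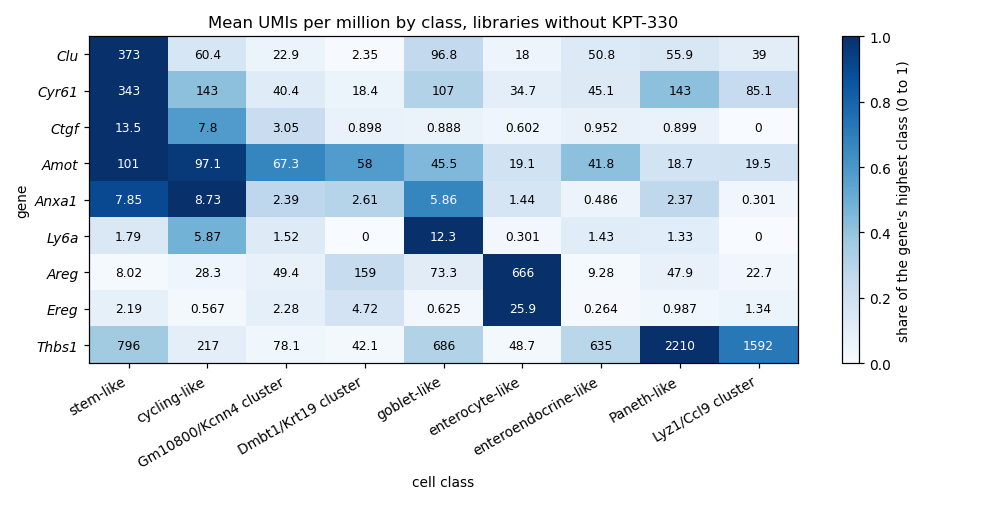
Mean CPM over libraries without KPT-330 for each gene (rows) in each cell class (columns), printed in the cells, with shading scaled to the highest class of that gene. Stem-like means come from ENR+CD libraries only. Clu, Cyr61 and Ctgf are highest in stem-like cells, Amot is at 101 in stem-like and 97.1 in cycling-like cells, and Areg and Ereg are highest in enterocyte-like cells and Thbs1 in Paneth-like cells; shades are not comparable between rows.

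Although rare, Ly6a and Anxa1 transcripts tended to occur in the same cells at day 6. In control replicate 1, 30 cells held Ly6a and 15 of them (50.0%) also held Anxa1, against 3.00% of all cells of that library. In control replicate 2 the counts were 4 of 8 cells (50.0% against 1.59%). With KPT-330 they were 7 of 19 cells (36.8% against 2.30%) and 5 of 6 cells (83.3% against 0.799%). Clu was found in 23 of the 30 Ly6a cells of control replicate 1 (76.7% against 41.4% of all cells), and in 32 of the 38 cells with Anxa1 (84.2%). The median depth was 10038 UMIs in cells with Ly6a and 8463 in all cells of that library, and the part of depth in these shares was not tested. The shares are descriptions of cells that share libraries.

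Areg and Thbs1 were higher with KPT-330 over the days as a whole. Of the 9 genes, 2 were called higher and 0 lower (edgeR, within day, 15 libraries), against 28.6% of 12812 genes called in either direction, 14.4% called higher and 14.2% lower. The median log2 fold change was 0.10 for the 9 genes and -0.0023 for all genes.

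Areg with KPT-330 was at 99.8 CPM at day 0.25, 135 at day 1, 303 at day 2, 87.7 and 269 at day 3, 212 at day 4, and 170 and 119 at day 6. The daily mean lay above control on 6 of 6 days, although the 2 day 3 libraries differed widely. The fitted change was 0.89 ± 0.22 on the log2 scale, or 1.85-fold (adjusted p = 0.01064), and it was called in all 23 alternative fits. Ereg, at 4.16 CPM at day 0.25, 4.91 at day 1, 17.6 at day 2, 1.67 and 18.2 at day 3, 17.1 at day 4, and 1.34 and 2.00 at day 6, was above control on 5 of 6 days. Its change of 1.17 ± 0.48 did not pass the test (adjusted p = 0.08238), and it did without the first day 3 KPT-330 library (1.30, adjusted p = 0.02729), with a replicate block (1.21, adjusted p = 0.04707) and with no filter on low counts (1.16, adjusted p = 1.13e-07). Enterocyte-like cells, which hold most Areg and Ereg UMIs, made up 30.1% and 31.2% of cells in the day 3 KPT-330 libraries and 10.04% in the day 3 control. They were 4.17% with KPT-330 and 4.29% in control at day 0.25, where the daily ratio of KPT-330 to control was 1.74 for Areg and 2.21 for Ereg. With KPT-330 and in control they were 17.4% and 11.8% at day 1, 38.3% and 26.9% at day 2, and 12.4% and 3.68% at day 4. At day 6 they were 21.0% and 2.50% with KPT-330 and 7.10% and 2.02% in control. The part of these shares in the Areg and Ereg levels was not tested. Within enterocyte-like cells the difference for Areg was -0.24 ± 0.17 (adjusted p = 0.5612) and for Ereg 0.33 ± 0.49 (adjusted p = 0.8478), and the 95% interval for Areg ran from -0.57 to 0.08. None of the 6 genes tested in that class passed in edgeR (1 at an unadjusted p under 0.05, 0 with DESeq2), with 3.01% of 8734 genes called, 1.28% higher and 1.73% lower. Clu, at -0.75 ± 0.50 there (adjusted p = 0.5487), was called lower when a cluster of almost only KPT-330 cells was left out (-1.996, adjusted p = 0.007486).

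Thbs1 with KPT-330 was at 292 CPM at day 0.25, 247 at day 1, 583 at day 2, 910 and 1254 at day 3, 2836 at day 4, and 1685 and 2775 at day 6. The daily mean exceeded control on 6 of 6 days, from 1.13-fold at day 2 to 2.35-fold at day 0.25, although the 2 conditions overlapped at day 6. Within each replicate number at day 6 the KPT-330 library was the higher, at 1685 against 1435 and 2775 against 1872. The fitted change was 0.83 ± 0.14 on the log2 scale, or 1.77-fold (adjusted p = 0.001207), called in all 23 alternative fits. Paneth-like cells, where Thbs1 was highest, made up 64.7% and 55.0% of cells at day 6 with KPT-330 and 45.7% and 39.0% in control. At day 0.25, where the ratio for Thbs1 was highest, they made up 0.534% with KPT-330 and 0.614% in control. The shares with KPT-330 and in control were 1.958% and 2.109% at day 1, 6.46% and 5.94% at day 2, and 48.6% and 32.1% at day 4, and at day 3 they were 33.8% and 26.004% with KPT-330 and 19.3% in control. The part of these shares in the Thbs1 levels was not tested.

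Clu, Cyr61, Ctgf, Amot, Ly6a and Anxa1 were not called over the days as a whole. Clu with KPT-330 was at 8.10 CPM at day 0.25, 6.36 at day 1, 7.97 at day 2, 16.8 and 19.4 at day 3, 47.1 at day 4, and 142 in both day 6 libraries. Both day 6 values lay below both controls. The overall change was -0.19 ± 0.18 (adjusted p = 0.4454), and it was called lower under scaling to the total count (-0.49, adjusted p = 0.04595) and without the day 3 control (-0.43, adjusted p = 0.04251). Cyr61 with KPT-330 was at 107 CPM at day 0.25, 134 at day 1, 108 at day 2, 52.7 and 83.4 at day 3, 149 at day 4, and 127 and 113 at day 6. Its daily ratio to control went from 2.68 at day 0.25 to 0.518 at day 6, higher on 3 days and lower on 3, and the overall change was 0.20 ± 0.20 (adjusted p = 0.4795), with the sign lost under scaling to the total count (-0.079).

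Amot, the scaffold gene, with KPT-330 was at 93.7 CPM at day 0.25, 57.8 at day 1, 35.8 at day 2, 23.6 and 21.0 at day 3, 24.2 at day 4, and 13.7 and 19.5 at day 6. From day 3 on, every KPT-330 library lay below every control library. On these days cycling-like cells made up 3.26% to 5.27% of control libraries and 0.219% to 1.33% of those with KPT-330, and stem-like cells 14.0% to 31.1% and 1.31% to 10.52%. The part of these shares in the Amot levels was not tested. The overall change of -0.32 ± 0.14 did not pass (adjusted p = 0.09071), and it did under scaling to the total count (-0.59, adjusted p = 0.01497), with no filter on low counts (-0.34, adjusted p = 0.008812), with equal weight per cell (-0.49, adjusted p = 0.01409) and without either day 0.25 library (-0.44, adjusted p up to 0.02427). Ctgf ranged from 0.149 to 5.20 CPM with KPT-330 and was lower on 5 of 6 days, with a change of -0.70 ± 0.39 (adjusted p = 0.1928). Anxa1 differed by 0.10 ± 0.24 (adjusted p = 0.7858), with the sign turned under scaling to the total count (-0.18), with equal weight per cell (-0.0079) and without either day 2 library (-0.016). Ly6a differed by -0.11 ± 0.35 (adjusted p = 0.8387), and no Ly6a UMI was seen in the second day 3 KPT-330 library.

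At day 6 alone, the only day with 2 libraries in each condition, 0 of the 9 genes were called (edgeR, with 1.25% of 13455 genes called, 0.624% higher and 0.624% lower). An unadjusted p under 0.05 was reached by 3, Ctgf, Thbs1 and Amot, and DESeq2 called 1, Thbs1. The estimates were -1.85 ± 0.71 for Ctgf (adjusted p = 0.2318), 0.81 ± 0.25 for Thbs1 (adjusted p = 0.1448) and -0.81 ± 0.21 for Amot (adjusted p = 0.09059). Clu differed by -0.80 ± 0.47 (adjusted p = 0.4469) and Cyr61 by -0.52 ± 0.27 (adjusted p = 0.3892). Amot was called under scaling to the total count (-1.20, adjusted p = 0.02218), and with no filter on low counts Clu (adjusted p = 0.004302), Ctgf (0.02429), Thbs1 (0.02143) and Amot (0.02204) were called. Equal weight per cell called Ctgf (-0.56, adjusted p = 0.04166) and Amot (-0.98, adjusted p = 0.04112) lower. With a replicate block 0 of the 9 were called at day 6, where replicate differences correlated at 0.365 between the 2 conditions. Whether the effect of KPT-330 differed between days 0.25 to 1 and days 2 to 6 was also tested, and edgeR called 0 of 9 genes and 0% of 12812 genes, with 2 of the 9 and 1283 of all genes at an unadjusted p under 0.05, and DESeq2 called 0 of the 9 and 19 of all. The 2 were Cyr61 (-1.13 ± 0.35, adjusted p = 0.3819) and Amot (-0.70 ± 0.24, adjusted p = 0.405), both lower on the later days, and Cyr61 was called with no filter on low counts (adjusted p = 0.0001311). All libraries of days 0.25 and 1 carry replicate number 1, and most later ones carry number 2. Stage and replicate number therefore cannot be fully told apart here.

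Within cell classes, Clu was higher with KPT-330 in stem-like cells. In stem-like cells of the control, Clu was at 7.24 CPM of the class at day 0.25, 20.8 at day 1, 22.3 at day 2, 27.1 at day 3, 154 at day 4, and 1249 and 1132 at day 6. With KPT-330 it was at 13.7 at day 0.25, 7.46 at day 1, 34.2 at day 2, 133 and 184 at day 3, 478 at day 4, and 2161 in the 1 day 6 library with at least 20 stem-like cells. From day 2 on, every KPT-330 value lay above every control value of its day. The change was 1.35 ± 0.19 on the log2 scale, or 2.55-fold (14 libraries, edgeR adjusted p = 9.656e-06), in a class where 4.86% of 8780 genes were called (3.03% higher and 1.83% lower). It was the only one of the 7 genes tested there that passed. With log-normalized clustering, where the name can cover other cells, 3 of 7 were called higher and 0 lower. The Clu call was kept in 18 of 19 alternative fits and lost with DESeq2 (1.13, adjusted p = 0.1335). Of the 19 fits, 14 leave out 1 library. On days with 1 library per condition, leaving out either gives the same fit, so these are not all distinct. Thbs1 in stem-like cells was at -0.18 ± 0.15 (adjusted p = 0.6271). At a clustering resolution of 0.8 it was at a called 0.68 (adjusted p = 0.002852). The stem-like name covers other cells at that resolution, 1260 against 2525. Stem-like cells made up 14.0% and 25.4% of the day 6 control libraries and 1.31% and 6.89% of those with KPT-330. The library with the value 2161 held 69 of them. Over whole day 6 libraries, the 1% of cells with most Clu held 53.1% and 68.2% of its UMIs with KPT-330. In the day 6 controls they held 34.7% and 40.8%. How evenly Clu was spread among stem-like cells was not tested. Clusters rest on genes that themselves differ with treatment, and the part of that in these values was not tested.

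**Figure D3:**
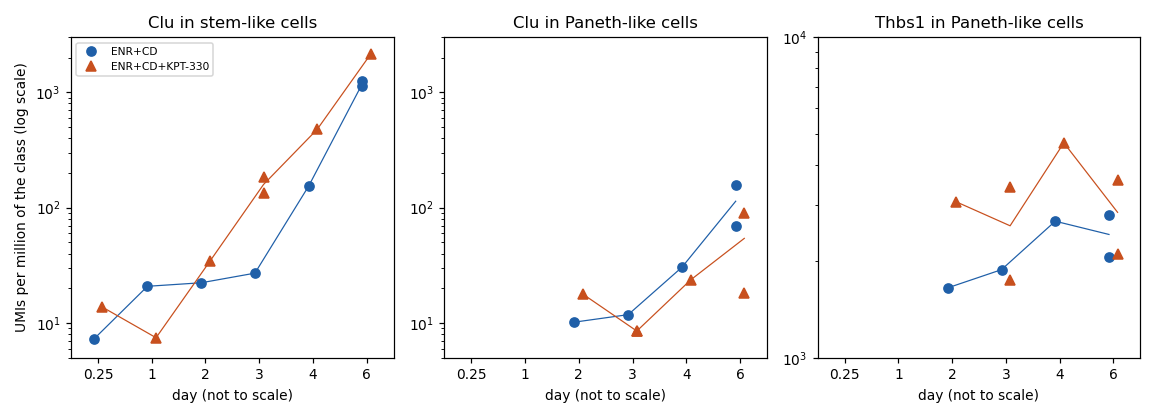
CPM of the class (vertical axis, log scale) by day (horizontal axis, not to scale) for Clu in stem-like cells, Clu in Paneth-like cells and Thbs1 in Paneth-like cells, with 1 point per library that has at least 20 such cells and lines through the daily means. Clu with KPT-330 reaches 2161 in stem-like cells at day 6 against 1249 and 1132 in control, whereas in Paneth-like cells the day 6 values are 90.1 and 18.2 against 158 and 69.2.

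In Paneth-like cells Clu was at 10.2 CPM at day 2, 11.8 at day 3, 30.4 at day 4, and 158 and 69.2 at day 6 in control. With KPT-330 it was at 17.8 at day 2, 8.46 and 8.58 at day 3, 23.6 at day 4, and 90.1 and 18.2 at day 6. In that class KPT-330 and control differed by -0.59 ± 0.36 (11 libraries, adjusted p = 0.4426; with a replicate block -0.78, adjusted p = 0.01449). Thbs1 in Paneth-like cells rose by 0.66 ± 0.17 on the log2 scale (adjusted p = 0.03993) and Areg by 0.74 ± 0.18 (adjusted p = 0.03116), in a class where 3.53% of 9904 genes were called (1.95% higher and 1.59% lower). Both calls were lost under scaling to the total count (adjusted p = 0.08099 and 0.0643) and with the other normalization before clustering (adjusted p = 0.5563 and 0.7601), and that of Thbs1 also with DESeq2 (adjusted p = 0.1455). Of 16 alternative fits, 11 of which leave out 1 library, 7 kept the Areg call and 5 the Thbs1 call. Leaving out either library of day 2, or either of day 4, gives the same fit. Both calls were also lost when day 2, day 4, the second day 3 KPT-330 library or the second day 6 KPT-330 library was left out (adjusted p up to 0.1131 for Areg and 0.2044 for Thbs1). The Areg call was lost without the second day 6 control (0.09662) and that of Thbs1 without the first (0.07425).

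Over all classes in the main clustering, 50 of 81 pairs of gene and class could be tested, and 12 were higher and 0 lower with KPT-330, with the share of all genes called given for each class. Besides the 3 above, Areg was higher in goblet-like cells (1.17 ± 0.21, adjusted p = 0.0007185), where 2.5% of 8402 genes were called (1.75% higher and 0.75% lower). It was not called at a clustering resolution of 0.8 (0.46, adjusted p = 0.4767). The goblet-like name covers other cells at that resolution, 1366 against 1761, and a Dll1/Fcgbp cluster of 1279 cells met no name. With log-normalized clustering, where the name covers 2657 cells, 5 of the genes were tested in goblet-like cells, and 3 were called higher and 1 lower. In the Lyz1/Ccl9 cluster Areg (1.04 ± 0.25, adjusted p = 0.0182) and Thbs1 (0.61 ± 0.16, adjusted p = 0.03571) were higher, with 2.42% of 7556 genes called (1.5% higher and 0.926% lower). Both were lost with DESeq2 (adjusted p = 0.06265 and 0.1023), under scaling to the total count (0.05329 and 0.1148) and without day 4 (0.1292 and 0.3284). Areg was also lost without day 2 (0.1298). Thbs1 was also lost without the second day 3 KPT-330 library (0.1038), the first day 6 control (0.07855) or the second day 6 KPT-330 library (0.06557). In enteroendocrine-like cells 0 of 5 genes tested were called (1, Areg, at an unadjusted p under 0.05, and 0 with DESeq2), with 1.98% of 9729 genes called, 0.853% higher and 1.13% lower. Early clusters with few libraries gave the other calls. In cycling-like cells Cyr61 was higher by 1.08 ± 0.20 (6 libraries, adjusted p = 0.004989, with 0.462% of 8665 genes called, 0.335% higher and 0.127% lower), at 108.5 against 37.6 CPM at day 0.25, 179 against 69.0 at day 1 and 145 against 135 at day 2. In the Gm10800/Kcnn4 cluster Cyr61 (1.19 ± 0.19, adjusted p = 0.009972), Areg (1.57 ± 0.23, adjusted p = 0.005443) and Thbs1 (1.15 ± 0.18, adjusted p = 0.009972) were higher over 4 libraries, with 0.513% of 9162 genes called (0.382% higher and 0.131% lower). In the Dmbt1/Krt19 cluster Cyr61 (1.65 ± 0.33, adjusted p = 0.0001231) and Thbs1 (0.92 ± 0.26, adjusted p = 0.03101) were higher over 4 libraries, with 1.19% of 6560 genes called (0.823% higher and 0.366% lower), and that of Thbs1 was lost under scaling to the total count (0.85, adjusted p = 0.06729). DESeq2 kept none of the calls in the cycling-like class and these 2 clusters, with adjusted p from 0.4142 to 0.9999. Leaving out day 0.25 or day 1 also ended the Cyr61 call in cycling-like cells, at 0.74 (adjusted p = 0.1334) and 0.94 (adjusted p = 0.1077), as did the other normalization before clustering (0.25, adjusted p = 0.7895). These days had 1 library per condition, so leaving out either library removed the day.

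**Figure D4:**
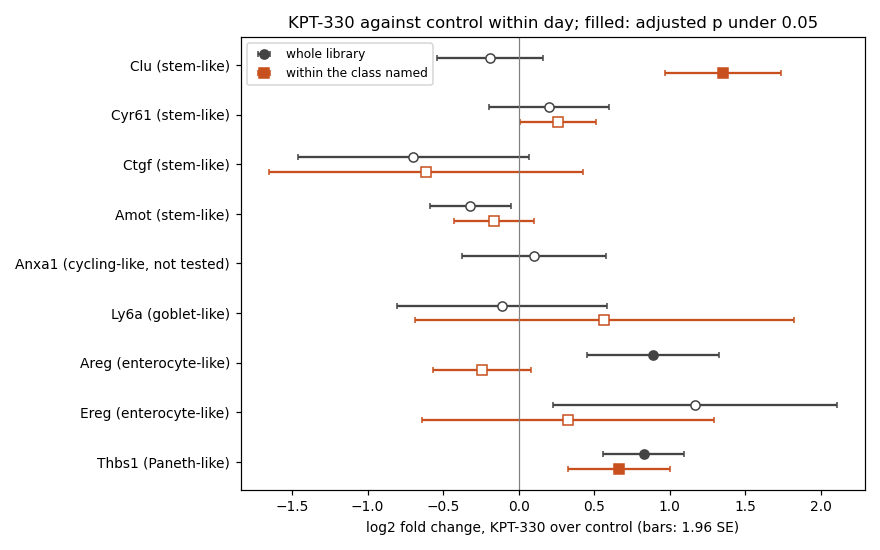
Log2 fold change of KPT-330 over control within day (horizontal axis, bars 95% intervals) for each gene, in whole libraries (circles) and within the class where the gene is highest without KPT-330 (squares), filled where the adjusted p is under 0.05. Clu is near 0 in whole libraries (-0.19) and at 1.35 in stem-like cells, while Areg is at 0.89 in whole libraries and -0.24 in enterocyte-like cells.

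Other genes of the pathways were followed as lists which, like the 9 genes, were chosen with earlier results of these data known. List counts set beside the shares of all genes are therefore descriptions and no independent test. Of 21 other YAP targets, 16 were tested for KPT-330, and 3 were higher and 7 lower, where 14.4% of all genes were called higher and 14.2% lower. Their median log2 fold change was -0.51, against -0.0023 for all genes. The largest changes were Nt5e, an ectonucleotidase (-2.02 ± 0.53, adjusted p = 0.01268), Ccdc80 (-1.71 ± 0.51, adjusted p = 0.02357), Igfbp3, which binds insulin-like growth factors (-1.03 ± 0.26, adjusted p = 0.01101), and Asap1 (-0.77 ± 0.12, adjusted p = 0.0007115). Nt5e and Ccdc80 rest on only 91 and 60 UMIs over all libraries. Of 22 Hippo and YAP core components 1 was higher and 4 were lower, counts too small to set apart from those shares. The 4 lower were the Amot relatives Amotl1 (-1.08 ± 0.14, adjusted p = 0.0003494) and Amotl2 (-0.75 ± 0.19, adjusted p = 0.01209), the phosphatase gene Ptpn14 (-0.95 ± 0.17, adjusted p = 0.002055) and Tead2 (-0.55 ± 0.16, adjusted p = 0.0197). In control medium, 6 YAP targets of 15 tested rose with day and 1 fell, Birc5, a cell division gene (-0.46 ± 0.13 per day, adjusted p = 0.04808), where 7.88% of all genes were called higher and 9.3% lower.

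The shares of all genes called with KPT-330, 14.4% higher and 14.2% lower, also apply to the next 3 lists. Of 12 EGF receptor family genes and ligands, 9 were tested and 1 was higher with KPT-330, the ligand gene Hbegf (0.64 ± 0.17, adjusted p = 0.01265). Of 20 genes of fetal-like and regenerating epithelium, 14 were tested, with 4 higher and 2 lower, counts too small to set apart from those shares. Gja1, a gap junction protein (-1.08 ± 0.35, adjusted p = 0.03384), and the cytokine gene Il33 (-1.03 ± 0.29, adjusted p = 0.01832) fell, whereas Sprr1a (0.96 ± 0.32, adjusted p = 0.03718) and Anxa2 (0.68 ± 0.15, adjusted p = 0.004556) rose. Of 14 immediate early genes, which also respond to cell dissociation, 9 were higher and 0 lower, led by Atf3 (1.08 ± 0.15, adjusted p = 0.0004448), Dusp1 (0.96 ± 0.16, adjusted p = 0.001064), Klf6 (0.79 ± 0.14, adjusted p = 0.001718) and Zfp36 (0.71 ± 0.18, adjusted p = 0.01186). Their summed level was 2702 to 6745 CPM in control and 3241 to 8706 with KPT-330, and their part in the changes of Areg, Cyr61 and Thbs1 was not tested. With day in control medium, 9 of the 14 rose and 0 fell, where 7.88% of all genes were called higher and 9.3% lower. Of 13 fetal-like and regenerating epithelium genes tested for that trend, 6 rose and 1 fell. Of 9 EGF receptor family genes and ligands tested, 2 rose and 0 fell.

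Over the 17 libraries, the genes outside the 9 whose log2 levels were closest to those of Clu were Nenf (Pearson r = 0.932) and Slc39a4 (0.919). For Thbs1 they were Dusp10 (0.985) and the Paneth cell defensin gene Defa17 (0.98), and for Amot the mitotic kinesin genes Kif2c (0.965) and Kif14 (0.956). Areg was closest to Pmaip1 (0.902) and Cd55 (0.894), Ereg to Slc25a25 (0.855) and Cdc42ep5 (0.84), and Cyr61 to F11r (0.872) and the keratin gene Krt18 (0.867). Ctgf was closest to Ajuba (0.86) and Itgb6 (0.822), Ly6a to Zfp74 (0.92) and Il1rn (0.917), and Anxa1 to Scml2 (0.885) and Lgals3bp (0.851). The points share days, depth and cell composition, so these values describe the libraries only.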

How the data were processed

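Per the labels and methods, the authors demultiplexed reads with bcl2fastq, aligned them to mm10 with STAR and collapsed them with the Drop-seq pipeline into deposited UMI counts per gene and barcode, without normalization. The authors kept cells by detected genes, UMIs, mitochondrial share, housekeeping genes and doublet calls, which were not repeated. The 19877 cells that the authors kept, of 26229 deposited barcodes, were used. The authors' merged table gave only the names of these cells.

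Counts were summed per library and tested with edgeR 4.0.16 in R 4.3.3 (TMM, a filter on low counts, quasi-likelihood, Benjamini-Hochberg over all genes, threshold 0.05). SE is the absolute log2 fold change divided by the square root of F. Cells were clustered with Seurat 5.3.0 and sctransform 0.4.2 (3000 variable genes without the 9 genes and the listed genes, 9 components, 20 neighbours, resolution 0.45). Classes were tested in libraries with at least 20 such cells, on days with both conditions. In these fits, leaving out the only library of a condition on a day therefore left out that day. The rule for naming clusters was set after seeing them, and no class was named from tuft markers, which summed to 1.63 to 6.84 CPM. Scaling to the total count, leaving out day 3, and leaving out a cluster of almost only KPT-330 cells were chosen after seeing the data. Alternatives used DESeq2 1.42.0, limma 3.58.1 (pseudocount 0.1), other scalings, filters and clusterings, and left-out libraries. Other clusterings were named by the same rule, so a class name can cover other cells there. The edgeR step was tested on simulated data with 200 genes changed by 2-fold, of which 82.5% were recovered among 12505 genes for KPT-330 against control. Named genes were the 9, up to 4 called genes per list with the largest change, and the 2 closest in level over libraries. The 9 genes and the lists were chosen with earlier results of these data known. Promoters are from RefSeq (GRCm38.p6), and the TEAD and AP-1 letters were searched by exact match. Libraries held 3458887 to 12433109 UMIs, so levels of a few CPM rest on few molecules.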

Additional observations from a re-analysis of the deposited data

Results flagged for a closer look

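The effect of KPT-330 was compared between stem-like and Paneth-like cells of the same libraries, a test added after the class values had been seen (edgeR with a term for library, 10 libraries of 4 days). The effect on Clu was 2.64 ± 0.26 higher on the log2 scale in stem-like than in Paneth-like cells (adjusted p = 2.839e-09), and the effect on Thbs1 differed by -1.22 ± 0.16 (adjusted p = 3.134e-06), in the direction of a larger effect in Paneth-like cells. At a clustering resolution of 0.8 Thbs1 was at 0.68 in stem-like cells (adjusted p = 0.002852) and at 0.52 in Paneth-like cells (adjusted p = 0.05048). The names cover other cells there. Stem-like cells were 1260, led by Cdca7 and Clca4, against 2525 led by Notum and Gif at 0.45. A Notum/Gif cluster of 1567 cells met no name at 0.8. These values therefore do not show whether the direction holds in the same cells. The difference itself was tested with 1 clustering only. In this comparison 1.71% of 10752 genes were called. Day 6 replicate 1 with KPT-330 had too few stem-like cells to enter. The groups given by the labels hold 1 or 2 libraries, so no library could be tested as lying apart from its group.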

How the results depend on the processing

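For day 0 against ENR+CD, 266 genes were called, and DESeq2 called 2103, the fit with no filter on low counts 82 and the fit of days 2 to 6 only 6048. Equal weight per cell turned Areg (-0.086) and Ereg (-0.11). Leaving out 1 library gave 0 to 4373 genes (0 without the second day 0 library, 4373 without day 0.25, and 1 to 41 without any other), Areg -0.011 to 0.84 and Ereg -0.25 to 1.06. For the trend with day (2138 genes), DESeq2 called 3238 and the log2 of day 5497, with Ereg at 0.16, and leaving out 1 library gave 317 (without day 1) to 2429 genes, with 339 without the second day 6 library, Areg -0.014 to 0.18 and Ereg -0.17 to 0.17. For KPT-330 against control (3661 genes), 2092 were called with day 3 left out and 2015 (without the day 3 control) to 3969 with 1 library left out, with Anxa1 at -0.016 to 0.20 and Ly6a at -0.44 to 0.074. Anxa1 and Cyr61 turned under total-count scaling (-0.18 and -0.079) and with equal weight per cell (-0.0079 and -0.070). At day 6 (168 genes), no filter gave 806 and total-count scaling 559, Ly6a turned under total-count scaling (-0.34) and equal weight (-0.095), and leaving out 1 library gave 1 (without the second day 6 control) to 228 genes and Ly6a -0.66 to 0.59. For later against early days (0 genes), DESeq2 called 19 and no filter 254. Anxa1 (-0.15) and Areg (-0.16) turned under total-count scaling, Anxa1 (-0.13) and Ereg (0.063) with equal weight, and Areg (-0.018) with day 3 left out. Leaving out 1 library gave Anxa1 -0.37 to 2.47, Areg -0.087 to 0.29, Ereg -0.61 to 0.087 and Thbs1 -0.43 to 0.34.

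Within classes, DESeq2 called 7 genes in cycling-like cells, 4 in the Dmbt1/Krt19 cluster, 5 in Gm10800/Kcnn4, 138 in goblet-like, 107 in Lyz1/Ccl9 and 249 in stem-like cells. Total-count scaling gave 172 in Gm10800/Kcnn4 and 683 in Paneth-like cells, and log-normalized clustering 102 in cycling-like, 436 in goblet-like and 87 in Paneth-like cells. Resolution 0.8 gave 79 in stem-like cells, with Thbs1 at 0.68 and Amot at 0.30, and Ly6a at -0.099 in goblet-like cells. A class name can cover other cells in these other clusterings. Leaving out 1 library gave 77 to 303 in Lyz1/Ccl9, 90 to 641 in Paneth-like, 23 to 90 in cycling-like, 150 to 321 in enterocyte-like (Ereg -0.026 to 0.61), 124 to 272 in enteroendocrine-like, 77 to 264 in goblet-like and 244 to 482 in stem-like cells (Ctgf -1.07 to 0.034, Thbs1 -0.30 to 0.049). Log-normalized clustering moved Thbs1 in Paneth-like cells to 2952 and Amot in stem-like cells to 85.6 CPM, and resolution 0.8 moved the latter to 84.6. The cause of these changes was not tested.

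Replicate 1 minus replicate 2 correlated at 0.0139 to 0.365 between groups. The highest value, 0.365, was between control and KPT-330 at day 6, so a shared replicate difference is present there. The main fits nevertheless had no replicate term, and a replicate block was fitted as an alternative. With a replicate block, 755 genes were called for day 0 against ENR+CD, 280 at day 6, 372 in enteroendocrine-like, 306 in Lyz1/Ccl9 and 831 in Paneth-like cells. Of the 9 genes it called Ereg with KPT-330 (1.21), Clu in Paneth-like cells (-0.78) and Anxa1 with day (0.48), and it changed no other call. It could not be fitted in the cycling-like class and the 2 clusters of 4 libraries. Ly6a, Anxa1 and Ctgf rest on few UMIs in many libraries, while the 2 day 3 KPT-330 libraries differed in Ereg (1.67 and 18.2 CPM) beyond their Poisson 95% intervals (0.933 to 2.75 and 15.1 to 21.7).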
